A study of Mus musculus with 3 samples.

Results

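The sites described here were 583 of 19301 predicted m6A sites of the mouse macrophage cell line RAW264.7, chosen because their bases kept the consensus at 4 of 5 places and broke it at the last. The consensus of m6A is DRACH, in which D stands for any base but C, R for a purine and H for any base but G, and the A is the methylated base. A site was a member where the genome read not C at the second base before the A, a purine at the base before it, C at the base after it and G at the second base after it, which is written DRACG. The score of a site played no part in the choice. The members made up 3.02% of the list (95% Wilson interval, 2.79 to 3.27%) and 37.5% of the 1555 sites that did not read DRACH.

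Poly(A)+ RNA of 3 untreated replicates of RAW264.7, an established line that carries no engineered allele in the labels, was profiled by miCLIP2. The input was 1 μg of poly(A)+ RNA per replicate, and 6 preamplification cycles were used. The method crosslinks an m6A antibody to RNA with UV light and finds the crosslinked base from where reverse transcription stops. The m6Aboost model then scored peaks at A, and sites with a score above 0.5 were deposited as 1 list for the line, pooled over the replicates. The list gives a position, a strand and a score for each site, and no read count, so that this list shows neither the depth at a site nor how it varied among the replicates.

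The mark m6A is set on nascent mRNA by a complex in which METTL3 is the catalytic subunit and METTL14 helps to hold the RNA. It is known to lie mostly in long internal exons and around stop codons, and it is bound by reader proteins of the YTH family, of which YTHDF2 speeds the decay of the transcript. The base after the C is mostly a pyrimidine or A in mapped sites, and a G at that place creates a CpG dinucleotide in the DNA.

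A few facts bear on all values. The design text of the series calls the line human, whereas the organism label is mouse, and all 19301 sites fell on A in the mouse genome. The bases were read from the reference genome GRCm38, not from RNA of RAW264.7. Among 14 macrophage marker genes 10 held a listed site of any motif, and among 14 marker genes of other cell types none did. The m6Aboost model reads the 21 bases around a site, its transcript region, its signal relative to the gene and its C-to-T transitions, so that the score, and with it the presence on the list, depends in part on the sequence and region described here. The intervals on shares reflect counting error alone, and the sites are no replicates of each other.

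The members with the 10 highest scores are shown first, because they are the sites that the model called most firmly in spite of the closing G. Each sequence is 21 bases of GRCm38, 5′ to 3′ on the strand of the transcript, with the pentamer centred on the A in capitals. The scores ran from 0.965 in Coro1c to 0.912 in Cdkn2d, and the pentamer was GGACG in each.
Coro1c: acctccacGGACGgtggctgc (chr5:113844319-113844339, minus strand, 3′ UTR)
Mtif3: ggaaagaaGGACGcttgacct (chr5:146955091-146955111, minus strand, 3′ UTR)
Neat1: tgcttcatGGACGtggtttat (chr19:5844443-5844463, minus strand, noncoding exon)
Ostc: agatatttGGACGattggcca (chr3:130696043-130696063, minus strand, 3′ UTR)
Dcaf5: acaacaatGGACGcttgcacc (chr12:80338824-80338844, minus strand, CDS)
Ogdh: agcaattaGGACGtttcaaca (chr11:6297064-6297084, plus strand, CDS)
Cul4a: ccgactgtGGACGcttggatt (chr8:13146720-13146740, plus strand, 3′ UTR)
Pip5k1c: ttttttttGGACGaagagtga (chr10:81318018-81318038, plus strand, 3′ UTR)
Zdhhc14: agccaagaGGACGttttgttt (chr17:5753151-5753171, plus strand, 3′ UTR)
Cdkn2d: caccacagGGACGcttccggt (chr9:21289057-21289077, minus strand, CDS)

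Of these 10 members, 9 lay in the last exon of their transcript, 8 had the highest score of all sites in their gene and 8 had T at the fourth base after the A. Coro1c, which encodes a coronin that binds actin filaments, carried its site 22 nt after the first base of the stop codon. Cul4a, the scaffold of a ubiquitin ligase, and Zdhhc14, a palmitoyltransferase, carried theirs 105 and 70 nt after it, with scores of 0.919 and 0.913. Ogdh, a subunit of the oxoglutarate dehydrogenase complex, was the exception in exon position, with its site in exon 2 of 23 and a score of 0.922. Cdkn2d, an inhibitor of cyclin-dependent kinases, held no other listed site. Neat1, the long noncoding RNA that builds paraspeckles, held its member with a score of 0.946 and a second one with a score of 0.536.

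The next sequences show the member with the highest score for each other pentamer, and the highest in a 5′ UTR, so that the range of motifs can be seen.
4833420G17Rik: aaatctaaAAACGcttcagtg (chr13:119469839-119469859, plus strand, CDS)
Rnf213: atcaaaaaAGACGtcatgacc (chr11:119440867-119440887, plus strand, no passing transcript)
Sik3: acccttaaGAACGctttctct (chr9:46202298-46202318, plus strand, intron)
Fem1b: ttccatacTAACGatgtctgc (chr9:62796456-62796476, minus strand, CDS)
Tm2d2: atcgtcagTGACGtttctgtg (chr8:25023022-25023042, plus strand, 3′ UTR)
Arl14ep: agaatcaaGGACGatggatcc (chr2:106969487-106969507, minus strand, 5′ UTR)

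Sik3, a salt-inducible kinase, had a score of 0.909 at GAACG, and the site lay in an intron of the chosen transcript. Rnf213, a giant ubiquitin ligase, had 0.836 at AGACG, in a gene without a transcript that passed the support filter. Tm2d2 had 0.819 at TGACG and 4833420G17Rik 0.709 at AAACG. Fem1b, a substrate receptor of a ubiquitin ligase, held the only TAACG site, with a score of 0.562. Arl14ep held the 5′ UTR member, with a score of 0.753.

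GGACG was by far the most frequent form. It made up 382 of the 583 members, or 65.5% (61.6 to 69.3%). AGACG followed with 87 members and GAACG with 81, whereas TGACG had 21, AAACG 11 and TAACG 1. GGACG also led at the high end of the scores, with 16 of the 17 members that reached 0.9.

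The members scored below DRACH sites. The median score was 0.678 (95% interval of the median, 0.666 to 0.693) with quartiles of 0.597 and 0.784, against 0.746 (0.743 to 0.748) over the 17746 DRACH sites. They scored above the other classes with 1 mismatch. The 479 sites with a pyrimidine before the A had a median of 0.604, the 135 sites with C at the first place 0.588, and the 288 sites without C after the A 0.552. The share of members in the list was 4.02% of the sites scored 0.5 to 0.6 and 4.06% of those scored 0.6 to 0.7, and fell from there to 1.00% (0.628 to 1.60%) of the sites scored at least 0.9.

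**Figure D1:**
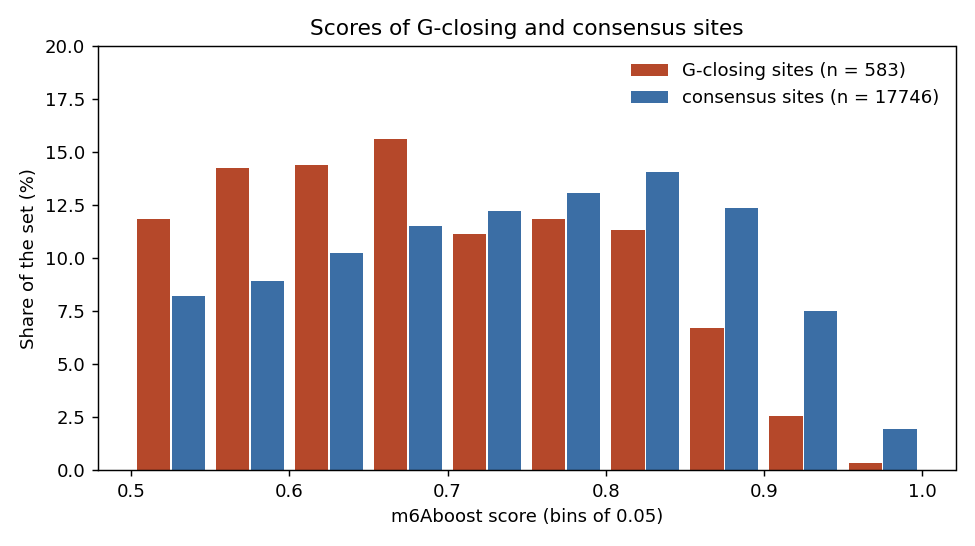
The share of each set (y axis, %) in bins of the m6Aboost score (x axis, bins of 0.05) is drawn as bars for the 583 members, here called G-closing, and the 17746 DRACH sites, here called consensus. The members are shifted to low scores, with 43.9% at 0.7 or more against 61.1% of the DRACH sites.

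Among sites with the same first 4 bases, those closed by G scored much like those closed by C. GGACG sites had a median score of 0.710 (0.693 to 0.728), close to 0.708 (0.695 to 0.719) in GGACC and below 0.747 in GGACA and 0.803 in GGACT. Sites at GAACG had 0.664, against 0.670 in GAACC and 0.671 in GAACA. Sites at AGACG had 0.643 (0.611 to 0.667), with 0.607 (0.591 to 0.628) in AGACC and 0.645 in AGACA. In each of these families the form closed by T had the highest median, 0.812 for GAACT and 0.747 for AGACT. The intervals of the medians for sites closed by G and by C overlapped in all 3 families. They also overlapped in the rarer ones. The 21 TGACG sites had 0.638 (0.569 to 0.668) and TGACC 0.586 (0.567 to 0.609). The 11 AAACG sites had 0.623 (0.506 to 0.662) and AAACC 0.612 (0.564 to 0.637). TAACG had only 1 site.

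The frequency of a motif in the list depends on how often the motif occurs. All A with a DRAC start were therefore counted in the exons of the 4419 chosen transcripts that held a listed site in an exon, 36552 of them closed by G. Of these, 489 were listed, with 1 A counted in the transcripts of 2 overlapping genes, which is 1.34% (1.23 to 1.46%). The background was 0.408% over all A of the same exons and 4.7% over DRACH A. The share was 1.78% for A closed by C, 3.09% for A closed by A and 9.33% for A closed by T. The levels are those of transcripts picked for holding a site and are therefore above those of all transcripts.

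The same order of closing bases held within the GGAC family. Of 8601 GGACG, 326 were listed, or 3.79% (3.41 to 4.21%), against 5.76% (5.44 to 6.10%) of GGACC, 9.20% of GGACA and 17.2% of GGACT. The share of GGACG was 0.658 times that of GGACC (0.583 to 0.743) and 0.220 times that of GGACT (0.197 to 0.246). AGACG was listed at 0.946% and AGACC at 1.42%, a ratio of 0.665 (0.514 to 0.861). GAACG was listed at 1.05% and GAACC at 1.48%, a ratio of 0.710 (0.540 to 0.934). In the rarer families the intervals of this ratio included 1, with 0.622 (0.349 to 1.11) for TGACG and 0.857 (0.424 to 1.73) for AAACG. With the first 4 bases and the region held to those of the DRACG A, the rates of motifs closed by C would have listed 656 A, those closed by A 1146 and those closed by T 3549, against the 489 listed. At a minimum score of 0.7 GGACG was listed at 2.02% (1.75 to 2.34%) and GGACC at 3.03% (2.80 to 3.29%), with no overlap of the intervals. At a minimum score of 0.9 only 16 GGACG and 39 GGACC were listed. Their shares were 0.186% (0.115 to 0.302%) and 0.203% (0.148 to 0.277%), and these wide intervals overlapped.

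Most DRACH pentamers were listed less often than GGACG. Outside the GGAC family, this held for every pentamer closed by adenine or cytosine, and for TAACT. The remaining DRACH pentamers had higher shares than GGACG. At 3.79%, GGACG was listed more often than AGACA at 2.50%, GAACA at 2.73% and TAACT at 2.18%, with no overlap of the intervals. TAACG was listed once among 2180 A, a share of 0.0459% (0.0081 to 0.259%).

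Members lay in coding sequence more often than DRACH sites did. Coding sequence (CDS) held 294 of the 583 members, or 50.4% (46.4 to 54.5%), against 40.2% (39.5 to 40.9%) of DRACH sites. The 3′ UTR held 159 members, or 27.3% (23.8 to 31.0%), against 39.3% (38.6 to 40.0%). The 5′ UTR held 17 members, noncoding exons 18 and introns 26. A further 33 members lay in the span of a gene but outside its chosen transcript, 35 in genes without a transcript that passed the support filter, and 1 in no gene on its strand.

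The motif itself was spread in this way. Of the DRACG A in exons, 62.3% lay in CDS and 24.4% in the 3′ UTR, against 49.2% and 43.5% of the DRACH A. Per A, the 3′ UTR was ahead, with 1.78% (1.53 to 2.08%) of its DRACG A listed against 1.3% (1.16 to 1.45%) in CDS and 0.442% (0.276 to 0.706%) in the 5′ UTR. The ratio of 3′ UTR to CDS was 1.38 (1.14 to 1.67) for DRACG and 1.10 (1.07 to 1.14) for DRACH. Closing by G gave the lowest share in CDS, where the intervals of G and C did not overlap, whereas they overlapped in both UTRs and in noncoding exons. The scores followed the same regions, with a median of 0.756 (0.710 to 0.783) for members in 3′ UTRs, 0.662 (0.649 to 0.686) in CDS and 0.594 in 5′ UTRs.

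**Figure D2:**
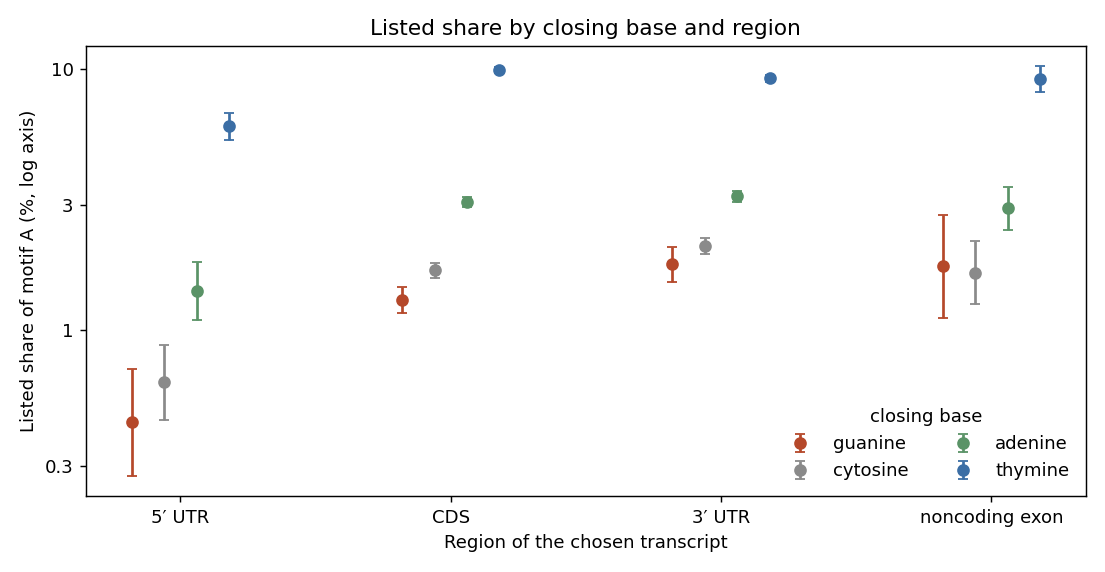
The listed share of all A with a DRAC start (y axis, %, log axis) is plotted by region of the chosen transcript (x axis) and by the base that closes the motif (colours); points are shares and bars 95% Wilson intervals. Guanine has the lowest point in the 5′ UTR, CDS and 3′ UTR and thymine the highest in all 4 regions, and in noncoding exons guanine, at 1.76%, lies beside cytosine, at 1.66%.

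The members gathered around stop codons, as DRACH sites did. On coding transcripts 142 of 470 exonic members, or 30.2% (26.2 to 34.5%), were found 200 nt or less from the stop codon along the spliced transcript, against 33.2% of DRACH sites and 11.7% of all DRACG A. The listed share of DRACG A rose from 0.838% (0.70 to 1.00%) more than 1000 nt before the stop codon to 2.46% (1.94 to 3.12%) in the last 200 nt before it and 5.21% (4.18 to 6.47%) in the first 200 nt from it. It was 3.68% in the next 200 nt and 0.374% (0.230 to 0.607%) from 1000 nt on. The peak was 13.9 times the far 3′ UTR (8.14 to 23.8) for DRACG and 12.3 times (11.5 to 13.3) for DRACH. In every distance class DRACH was listed more often, by 2.7 to 3.98 times. Inside a stop codon the A of either motif can only be the last base of TAA or TGA. The pentamer there thus starts with TAAC or TGAC. None of the 65 DRACG A there was listed. Taking 0 to allow a count of 3, the share could be up to 4.62%. Over all counted exons TAACG was listed at 0.0459% and TGACG at 0.217%, so these 65 A cannot show whether members avoid stop codons. Of the 712 DRACH A there 44 were listed, or 6.18%, beside 6.62% of TGACT and 2.18% of TAACT over all counted exons.

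**Figure D3:**
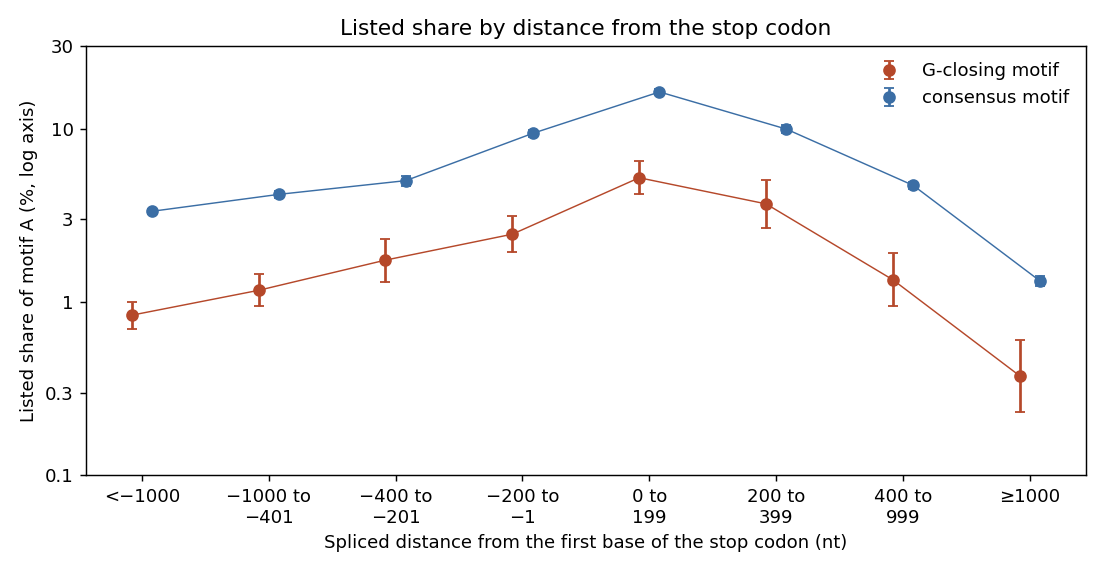
The listed share of motif A (y axis, %, log axis) is plotted by spliced distance from the first base of the stop codon (x axis, nt, negative before it) for DRACG, here G-closing, and DRACH, here consensus; points are shares and bars 95% Wilson intervals. Both sets peak in the 200 nt from the stop codon, at 5.21% and 16.3%, and are lowest from 1000 nt on.

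Few members lay near exon junctions. Of the DRACG A, 52.3% lay less than 100 nt from an exon junction, but only 61 of the 488 exonic members did, or 12.5% (9.86 to 15.7%), and 13.4% of DRACH sites. DRACG A were listed at 0.184% (0.124 to 0.273%) within 50 nt of a junction, at 0.610% from there to 100 nt, at 2.68% from 100 to 200 nt and at 4.11% (3.51 to 4.79%) from 200 to 400 nt. From 400 nt on the share was lower again, at 1.76% (1.52 to 2.04%), and 4.39% for DRACH. The share at 100 nt or more was 7.70 times that under 100 nt (5.90 to 10.1) for DRACG and 4.46 times (4.25 to 4.67) for DRACH, and these intervals did not overlap. The lead of DRACH over DRACG was 5.21 times (3.47 to 7.81) within 50 nt and 2.49 times (2.15 to 2.89) from 400 nt on.

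**Figure D4:**
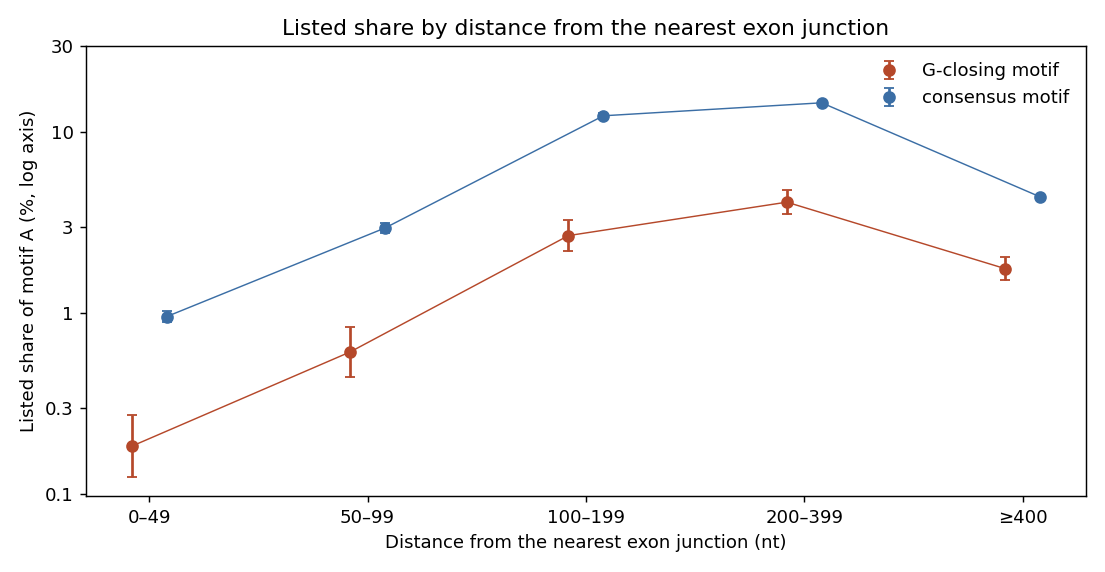
The listed share of motif A (y axis, %, log axis) is plotted by distance from the nearest exon junction (x axis, nt) for DRACG, here G-closing, and DRACH, here consensus; points are shares and bars 95% Wilson intervals. Both sets rise by more than 10 times from the first class to the class from 200 to 400 nt, where they reach 4.11% and 14.5%, and are lower from 400 nt on, at 1.76% and 4.39%.

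Members were also frequent in last exons and in long internal exons. Last exons held 298 of the 488 exonic members, or 61.1% (56.7 to 65.3%), against 69.0% (68.2 to 69.7%) of DRACH sites, and 33.5% of all DRACG A. First exons held 9.84% (7.5 to 12.8%), against 15.5% of all DRACG A, and 4.91% of DRACH sites against 5.35% of all DRACH A. In first exons 0.865% (0.655 to 1.14%) of the DRACG A were listed, below the share over all exons. Of the 142 members in internal exons, 105 lay in exons of at least 400 nt. Internal exons of at least 400 nt had 3.48% (2.89 to 4.2%) of their DRACG A listed, those of 200 to 400 nt 0.357% and those under 200 nt 0.207% (0.141 to 0.303%). The ratio of the longest to the shortest class was 16.8 (11 to 25.8) for DRACG and 16.3 (14.9 to 17.8) for DRACH. Noa1, a GTPase of mitochondria, was an example of a first exon, since all 4 of its members lay in exon 1 of 7, which is 1178 nt long.

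In coding sequence the A of most members was the middle base of its codon. The reading frame could be read for 292 of them. In 176, or 60.3% (54.6 to 65.7%), the A was the second base of its codon, in 50 the first and in 66 the third. DRACH sites had 49.6% (48.4 to 50.7%) at the second base and 24.3% at the first, and all DRACG A 52.9% at the second base. The motif fixes what these frames can encode. With A at the second base the codon was GAC, aspartate, in 155 members and AAC, asparagine, in 21. With A at the first base it was ACG, threonine, in all 50, and with A at the third base arginine followed in all 66. Per A, 1.48% (1.28 to 1.71%) of DRACG A at the second base were listed, against 0.899% (0.682 to 1.18%) at the first and 1.29% (1.02 to 1.64%) at the third. The intervals of the second and the third base overlapped, and the ratio of the second to the first was 1.64 (1.20 to 2.25). DRACH A were listed most often at the third base, at 5.42% (5.19 to 5.67%), with 4.52% at the second and 4.03% at the first. For both motifs these shares and the ratio pool pentamers that differ in their listed share. The pentamers were not held fixed across codon positions, so an effect of the position itself was not tested.

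The bases outside the pentamer, which the rule did not use, set the members apart from unlisted DRACG A. The base with the widest range was the fourth after the A. A DRACG A with T there was listed at 3.07% (2.71 to 3.47%), one with A at 1.22%, one with G at 0.860% and one with C at 0.519% (0.394 to 0.684%). T stood there in 50.7% of the listed A and in 22.1% of all DRACG A. The ratio of T to C was 5.91 (4.37 to 8.0) for DRACG and 1.94 (1.85 to 2.03) for DRACH. Within the GGAC family this ratio was 5.34 (3.75 to 7.61) for GGACG, 2.11 (1.77 to 2.51) for GGACC, 2.06 (1.84 to 2.32) for GGACA and 1.44 (1.32 to 1.58) for GGACT, so that the interval for GGACG lay above the 3 others. GGACG with T at this place was listed at 8.38% (7.14 to 9.81%), and GGACA with T there at 13.6% (12.7 to 14.5%). The GGACG sites with T there had a median score of 0.747 (0.720 to 0.777), and those with another base 0.675 (0.657 to 0.709).

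Next in range was the fourth base before the A. A there gave 2.29% (2.01 to 2.61%) and G 0.749% (0.611 to 0.916%). The third base before the A followed, with 2.18% (1.87 to 2.53%) for T and 0.718% for C. These values pool first bases that differ in their listed share. Within GGACG, the fourth base before the A ranged from 2.22% for G to 6.11% for A, and the third from 2.7% for C to 4.71% for T. DRACG A with both A at the fourth base before and T at the fourth base after were listed at 5.43% (4.53 to 6.50%), and those with neither at 0.639% (0.540 to 0.757%). DRACH A with both were listed at 9.04% and with neither at 3.32%. At the third base after the A the DRACG A ranged from 1.08% (0.897 to 1.3%) for G to 1.58% (1.33 to 1.86%) for C, with 1.3% for A and 1.47% for T. Over all DRACH A this place ranged from 2.17% for A to 7.23% for G, but these pool closing bases that differ in their listed share. Within the GGAC family the highest share there was 1.43 times the lowest for GGACG, 1.55 times for GGACC, 1.60 times for GGACA and 1.91 times for GGACT. As the model reads these bases, their part in the methylation and in the call cannot be told apart here.

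**Figure D5:**
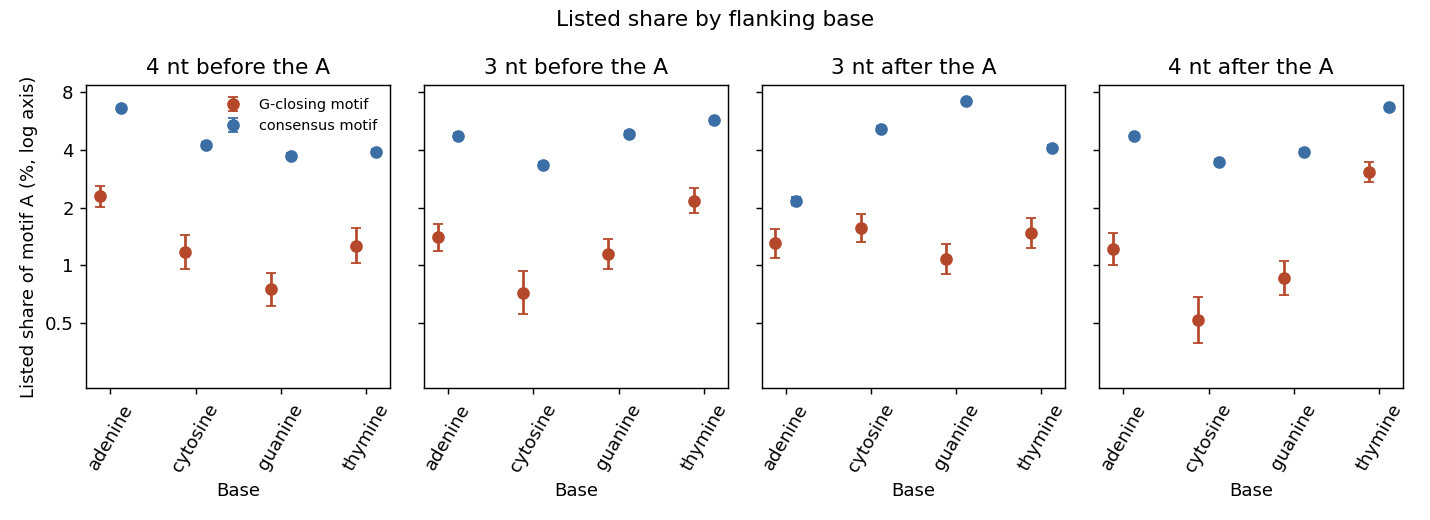
The listed share of motif A (y axis, %, log axis) is plotted by the base (x axis) at the fourth and the third place before and after the A (panels) for DRACG, here G-closing, and DRACH, here consensus; points are shares and bars 95% Wilson intervals. For DRACG the widest range is at the fourth place after the A, from 0.519% for cytosine to 3.07% for thymine, and for DRACH, pooled over its closing bases, at the third place after it.

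The GC content around members was slightly above that around DRACH sites over wider windows, and in the nearest 10 nt on either side both sets had a median of 50%. In the 50 nt on either side of the A, without the pentamer, the median GC content was 56.2% with quartiles of 52.1 and 61.5% in members, 55.2% with quartiles of 50 and 59.4% in DRACH sites, and 53.1% in unlisted DRACG A. The number of CpG dinucleotides in these bases was 3.52 ± 2.96 (SD, n = 583 members) on average, 2.53 ± 2.40 (SD, n = 17746) in DRACH sites and 3.56 ± 3.63 (SD, n = 36063) in unlisted DRACG A. The medians were 3 in members and 2 in both other sets, and 8.92% of members, 16.2% of DRACH sites and 13.2% of unlisted DRACG A had no CpG there. The listed share rose from 0.571% (0.443 to 0.736%) among DRACG A at or below the lower quartile of GC content to 1.99% (1.72 to 2.31%) between the median and the upper quartile, with 1.75% above it. Repeats marked in the genome held 2.06% (1.18 to 3.56%) of the members and 4.39% of DRACH sites.

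Members had a DRACH site nearby about as often as DRACH sites had another one. On the spliced transcript 286 of the 488 exonic members, or 58.6% (54.2 to 62.9%), had a listed DRACH site within 100 nt, and 56.2% of DRACH sites had another one. For members the share was 41.0% within 50 nt, and 47.2% within 100 nt at a minimum score of 0.7. In the genome 333 of the 583 members had one within 100 nt, and in 197 of these pairs the DRACH site had the higher score. The difference of member and nearest DRACH site had a median of −0.02 and quartiles of −0.13 and 0.07.

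The members that lay furthest above their neighbour were in Stxbp5, a regulator of vesicle fusion, 1600012H06Rik, Atp1b3, a subunit of the sodium pump, Elavl1, an RNA-binding protein that stabilises mRNAs, and Pip5k1c, a phosphoinositide kinase. Stxbp5 had 0.901 at the member and 0.514 at the DRACH site 77 nt downstream. Elavl1 had 0.910 and 0.574, at 36 nt. Those furthest below were in Fam20b, a xylose kinase, Atxn1l, Clns1a, Psmb3, a proteasome subunit, and Flna, a filamin. Fam20b had 0.558 at the member and 0.90 at the DRACH site 65 nt upstream. Clns1a had 0.615 and 0.943, at 37 nt.

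Overlapping motifs were a special case of neighbours. In 15 members the closing G and the 4 bases after it formed a DRACH whose A was 4 nt downstream, and in 11 of these the downstream A was listed too. It had the higher score in 8 of the 11 pairs. In Pik3cd, a catalytic subunit of a phosphoinositide kinase, the scores were 0.895 for both. In Mrpl43, a protein of the mitochondrial ribosome, the member had 0.506 and the DRACH site 0.805.

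The members fell into 514 genes, 10.4% of the 4947 genes with any site, and 460 of these held 1 member, 44 held 2 and 10 held 3 or more. Genes with a member had a median of 5 listed sites of any motif. The share of members among sites was 2.53% (1.81 to 3.53%) in genes with 1 site, 2.93% in genes with 2 to 4, 3.05% in genes with 5 to 9 and 3.21% (2.75 to 3.74%) in genes with at least 10. Protein-coding genes held 572 members and lincRNA genes 5. In 115 members, or 19.7% (16.7 to 23.1%), the score was the highest of the gene, against 25.6% of all sites and 26.8% (26.1 to 27.4%) of DRACH sites, and 33 of these members were the only site of the gene.

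Plec, which encodes the cytolinker plectin, held the most members, 6 of its 66 sites. All 6 lay in CDS, with scores from 0.560 to 0.847. Noa1 followed with 4 of 6 sites and scores from 0.578 to 0.728. Pip5k1c and Rassf2, a protein that binds Ras, held 3 each, all in the 3′ UTR, at scores up to 0.914 and 0.860. Irf2bpl, Rnf213, Dyrk3, a protein kinase, Ythdf2, Soga1 and Spen, a transcriptional repressor, also held 3 each. The 3 in Spen had scores of 0.508, 0.556 and 0.613 and ranked 30th or lower among its 37 sites.

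The m6A pathway was covered by a list of its genes. Of 21 writers, erasers and readers 12 held a site of any motif and 2 held a member. Ythdf2, the reader, held 3 members of 12 sites, all in CDS, 227, 476 and 762 nt before the stop codon. Their sequences are shown as examples of coding sites, in the order of their scores of 0.674, 0.640 and 0.572.
Ythdf2: tttgtgaaGGACGttcccaat (chr4:132204327-132204347, minus strand, CDS)
Ythdf2: agggcaacAGACGcagccatt (chr4:132204862-132204882, minus strand, CDS)
Ythdf2: tactctgaGGACGatatccac (chr4:132204576-132204596, minus strand, CDS)

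Mettl16, a methyltransferase outside the METTL3 complex, held 2 of its 4 sites at GGACG, 458 and 194 nt before the stop codon, with scores of 0.744 and 0.695. Over the 12 genes, 5 of 78 sites were members. Of 51 chromatin regulators 39 held a site and 7 a member, with 10 members among 259 sites. These were Brd2, a bromodomain protein (0.675), Ep300, an acetyltransferase (0.685), Kdm2a, a demethylase (0.690), Kdm2b, its paralog (0.694 and 0.544), Ncor1, a corepressor (0.591), Smarca4, a remodelling ATPase (0.557), and Spen. Of 55 genes of innate immune signalling 33 held a site and 3 a member, with 3 members among 170 sites. Nfkb1, a subunit of NF-kB, had 0.782 at AGACG, 197 nt after the first base of the stop codon, and it was the highest score of its 4 sites. Tab1 and Tab2, adaptors of the kinase TAK, had 0.830 and 0.824. Among the macrophage markers Msr1, a scavenger receptor, had 0.686 at GAACG, in CDS. The share of members was 3.86% of the sites in chromatin regulators, 1.76% in innate immune signalling and 6.41% in m6A genes, beside 3.02% over the whole list, and with 3 to 10 members in each list these shares are descriptions.

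Hic2 is a transcriptional repressor in which the study found m6A that depends on Mettl3 at a GGACG site. That result came from an assay without antibody in mouse embryonic stem cells. Hic2 held no listed site here, and its chosen transcript has 1 GGACG in its exons. Whether this is the tested base was not checked. As the list gives no expression, a lack of the mark and a lack of the transcript cannot be told apart.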

How the data were processed

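miCLIP2 was performed by the authors on poly(A)+ RNA of 3 replicates of RAW264.7. According to the submitters' processing notes, the tools were STAR (2.7.3a), SAMtools (1.9), UMI-tools (1.0.0) and bedtools (2.27.1). Peaks were called with PureCLIP, peaks found in at least 2 replicates were kept, and those at A were scored with m6Aboost. The authors deposited the sites scored above 0.5 as 1 BED list pooled over the replicates, with the m6Aboost prediction score as its only value. The score rates the call and measures no methylation level. The list used here holds no depth per site and no replicate values, so no test across replicates was run on it. Signal tracks were not analysed here.

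Positions were read as 0-based on GRCm38 and are printed 1-based. All sites fell on A, and all 16198 exonic sites fell on A in the transcript sequences of the annotation. Genes and transcripts were those of GENCODE M21 (the authors used M23). A site was given to the longest gene on its strand with a transcript of support level 3 or better and annotation level 2 or better. Where no overlapping gene had such a transcript, the site went to the longest gene and was given no region. Otherwise its region was read on the transcript with the longest span. The stop codon was counted to the CDS. Listed shares divide listed A by all A with the motif in exons of transcripts with a listed site. Shares carry 95% Wilson intervals, medians binomial intervals and ratios log-normal intervals, all for counting error only. The counting was tested on a simulated list, in which 4 of 4 planted rates lay within their intervals. Python 3.11.15, NumPy 2.4.6, pandas 2.3.3, SciPy 1.17.1 and matplotlib 3.10.9 were used.

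Genes were named by a rule: the 10 genes with most members, the 10 members with the highest scores, the highest per pentamer and region, Hic2, genes of fixed lists with a member (1 of them is not reported here), and the 5 largest rises and falls against the nearest DRACH site within 100 nt. Neat1's second member and the overlapping pairs in Pik3cd and Mrpl43 were named after their values were seen. The members and lists were chosen with earlier results of these data known. The alternatives were a minimum score of 0.7, neighbouring sites collapsed, other transcripts, no support filter and other windows. Sequence from mouse chromosome 18, which holds 11 members, is not shown.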

Additional observations from a re-analysis of the deposited data

How the results depend on the processing

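No paired analysis was possible because the sites used here form a single list with nothing given per replicate, and leaving out a replicate could not be done either. Of 53 alternative values, 32 stayed within the interval of the value reported, or within 1.5 times for counts, and 21 moved. A minimum score of 0.7 moved most. It left 256 members in 244 genes, with 78.5% GGACG, a median score of 0.798, 42.2% in CDS, 38.3% in the 3′ UTR, 0.781% in the 5′ UTR, 37.5% within 200 nt of the stop codon, 70.6% in last exons, 47.2% with a DRACH site within 100 nt and 0.599% of DRACG A listed. Without the support filter 55.7% lay in CDS and 56.2% in last exons. Windows of 100 and 400 nt around the stop codon held 17.2% and 47.9%, and windows of 50 and 200 nt gave 41.0% and 74.2% with a DRACH site. The listed share of DRACG A was 1.93% in transcripts with at least 3 sites and 1.78% in 3′ UTRs. Median GC content was 50% with 10 nt on either side of the A and 55.0% with 250 nt. Collapsed sites and the longest spliced transcript moved none of the values. With a limit of 200 nt for long internal exons, 81.7% of the internal members lay in them, against 73.9% at 400 nt. As the list ends at a score of 0.5, weaker sites cannot be counted.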
